A study of Homo sapiens with 4 samples.

Results

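The 50 interferon-stimulated effector genes described here were a list of named genes. They were taken as all probe sets of the array annotated to 1 gene only, that gene being on the list. All 50 genes were found, with 93 probe sets, among 19741 genes and 54675 probe sets in all. The list contains the IFIT, OAS, MX, IFITM and IFI44 families, the ISG15 conjugation system, and interferon-induced PARP, TRIM and nuclear body genes. RNA came from CL1-5 and CL1-0, a pair of human lung adenocarcinoma cell lines whose cell of origin the labels give as the type II alveolar cell. CL1-5 is an invasive subline of CL1-0. The 4 groups were CL1-5 expressing control shRNA, CL1-5 expressing G9a shRNA2, CL1-0 expressing control vector and CL1-0 expressing HA-G9a, a tagged form of G9a. All were stably transduced and puromycin-selected, and the labels name no single clones. G9a, encoded by EHMT2, is a histone H3K9 methyltransferase. Each group was 1 array, so no difference has a replicate check and no p-value is given.

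Interferon-stimulated genes are the effectors of the antiviral state. Secreted type I and type III interferons bind cell surface receptors, and JAK kinases then activate a transcription factor complex that contains IRF9. The complex binds the interferon-stimulated response element (ISRE) in promoters, where repeated GAAA units are read. Carcinoma cells can hold a part of this set switched on without infection.

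Promoters of 6 members that match a paired GAAA motif of the ISRE, and of OAS1, which has no match at the spacing searched, are printed below because most of these genes were lower together after the G9a knockdown. Sequences are from RefSeq, build GRCh38.p14, and run 5′ to 3′ on the gene's strand, from 250 bases before to 50 bases after an annotated start. Capitals mark each match to the motif searched, GAAA followed after any 2 bases by GAAA, on either strand; on the other strand it reads TTTC, any 2 bases, TTTC. Overlapping matches run together.
IFIT1 (chr10:89392373-89392672, plus strand): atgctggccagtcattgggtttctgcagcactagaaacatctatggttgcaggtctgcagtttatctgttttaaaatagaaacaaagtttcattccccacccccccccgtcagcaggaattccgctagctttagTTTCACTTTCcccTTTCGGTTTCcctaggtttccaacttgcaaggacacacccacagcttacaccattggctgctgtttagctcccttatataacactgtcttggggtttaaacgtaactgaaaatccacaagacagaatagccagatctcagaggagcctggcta
IFIT3 (chr10:89327747-89328046, plus strand): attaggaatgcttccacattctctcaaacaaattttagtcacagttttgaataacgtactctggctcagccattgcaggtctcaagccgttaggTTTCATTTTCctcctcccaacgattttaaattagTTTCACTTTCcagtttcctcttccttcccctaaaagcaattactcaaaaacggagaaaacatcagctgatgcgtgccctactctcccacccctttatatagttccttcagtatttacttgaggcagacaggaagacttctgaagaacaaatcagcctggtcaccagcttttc
ISG15 (chr1:1013247-1013546, plus strand): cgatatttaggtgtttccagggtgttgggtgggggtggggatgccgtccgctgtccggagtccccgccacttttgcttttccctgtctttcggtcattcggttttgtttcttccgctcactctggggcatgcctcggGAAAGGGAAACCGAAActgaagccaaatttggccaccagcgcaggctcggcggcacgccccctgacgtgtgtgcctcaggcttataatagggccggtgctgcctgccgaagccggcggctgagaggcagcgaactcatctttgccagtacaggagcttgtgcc
IFI6 (chr1:27672143-27672442, minus strand): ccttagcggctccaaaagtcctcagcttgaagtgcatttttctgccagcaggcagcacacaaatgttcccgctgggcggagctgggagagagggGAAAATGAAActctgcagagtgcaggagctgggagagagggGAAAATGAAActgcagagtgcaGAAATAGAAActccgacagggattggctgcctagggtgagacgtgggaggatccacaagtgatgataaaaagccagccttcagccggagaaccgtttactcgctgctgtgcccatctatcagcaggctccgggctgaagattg
GBP1 (chr1:89065159-89065458, minus strand): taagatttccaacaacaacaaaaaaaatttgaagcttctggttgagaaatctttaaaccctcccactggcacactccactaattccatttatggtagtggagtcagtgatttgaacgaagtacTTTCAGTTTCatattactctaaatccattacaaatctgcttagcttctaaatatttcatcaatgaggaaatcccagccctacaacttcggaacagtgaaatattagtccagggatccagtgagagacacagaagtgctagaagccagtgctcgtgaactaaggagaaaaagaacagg
HERC5 (chr4:88456869-88457168, plus strand): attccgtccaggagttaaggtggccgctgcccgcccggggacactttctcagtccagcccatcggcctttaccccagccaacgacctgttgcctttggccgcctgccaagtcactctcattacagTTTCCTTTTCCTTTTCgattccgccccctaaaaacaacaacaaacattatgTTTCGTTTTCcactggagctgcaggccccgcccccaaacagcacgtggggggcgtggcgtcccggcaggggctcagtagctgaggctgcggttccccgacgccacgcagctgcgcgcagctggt
OAS1 (chr12:112906712-112907011, plus strand): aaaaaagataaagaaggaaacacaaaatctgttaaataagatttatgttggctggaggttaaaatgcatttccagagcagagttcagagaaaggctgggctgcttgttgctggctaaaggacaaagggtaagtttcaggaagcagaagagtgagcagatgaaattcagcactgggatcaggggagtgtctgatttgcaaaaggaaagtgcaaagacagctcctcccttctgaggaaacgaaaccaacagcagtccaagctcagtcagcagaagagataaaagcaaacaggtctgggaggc
In IFIT1 the matches began 116 and 103 bases before the start, and in IFIT3 156 and 122 bases before it. ISG15 had overlapping matches from 113 and 107 bases before the start. IFI6 had 3, the farthest beginning 156 bases before the start, and GBP1 had 1 at 127 bases. HERC5, which did not differ by 2-fold after the knockdown, had 3, the nearest at 74 bases. The OAS1 window holds GAAA units 1 base apart, a spacing that was not searched, so having no match does not mean having no ISRE.

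Promoter windows were at hand for 42 of the 50 members, some with several starts. IFIT2, IFITM2, MX2, OAS2, OASL, USP18, TRIM22 and GBP2 had none. At least 1 window held the paired GAAA motif in 30 of the 42 members (71.4%), against 4.38% of all 27305 genes with a window. DTX3L and PARP9 lie head to head and share 1 match. The interferon-gamma element, TTC and GAA separated by any 3 bases and the same on both strands, was in 11 of the 42 (26.2%), against 9.38% of all genes. Such a match describes letters and not a bound site.

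Members lower after the knockdown were found both with and without the motif. Whether the motif divides them from the rest cannot be decided here. Only 11 measured members had no match, OAS1 among them, and IFIT2, OAS2 and OASL had no window. Of 27 measured members with the paired GAAA motif, 17 were at least 2-fold lower, with a median log2 ratio of -1.86. Of 11 measured members without a match at this spacing, 6 were lower, with a median of -1.24. Over all measured genes, 7.76% were lower. By the probe set used for each gene, ratios with the motif ran from -4.87, of LGALS3BP, to 0.26, of PARP12. Those without a match ran from -4.08, of OAS1, to -0.03, of HELZ2.

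Values are signal intensities as the authors deposited them, on a linear scale. The median signal ranged from 11.3 to 14.9 and was highest on the knockdown array, where the log2 ratio of the median gene over the CL1-5 control was 0.42. Ratios below are therefore log2 ratios relative to the median gene of the same comparison, unless they are called as deposited. A gene was measured in a comparison when its brighter array reached 12.5, the median over the whole table, and signals under 3.35 were set to that floor. As a yardstick, the pooled SD among log2 ratios from probe sets of the same gene was 0.54 for the knockdown, 0.51 for HA-G9a and 0.65 for the lines. The ratio of 3′ to 5′ control probe sets ran from 1.01 to 1.09 for GAPDH and from 1.25 to 1.55 for ACTB. EHMT2 checked the labels: its signal was 376 in the CL1-5 control, 28.1 after the knockdown, 420 with the vector and 862 with HA-G9a.

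Interferon-stimulated genes were lower as a set after the G9a knockdown in CL1-5. Among the 43 members measured, 26 (60.5%) read lower by 2-fold or more, whereas 7.76% of all 13045 measured genes were. None was 2-fold higher, against 8.13% of all genes. IFIT2, OAS1, OAS2, DDX60, IFI16, IFI27, IFI44, SAMD9, LGALS3BP, BST2, MX1, GBP1 and RSAD2 reached 12.5 in CL1-5 only on the control array. By the probe sets used, these genes could not have read higher, here or in later counts of this comparison. The shares of all genes were taken with the same filter. The members' median log2 ratio was -1.27, against 0 for all genes by construction. At 4-fold, 18 members were lower, against 2.82% of all genes. Among the 27 members whose brighter array reached the 75th percentile of all values, 84.2, 15 were lower, against 5.21% of all genes this bright. With the general brightness of the knockdown array left in, 21 members were still lower by 2-fold, against 4.74% of all genes. None was higher, against 16.8% of all genes.

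**Figure D1:**
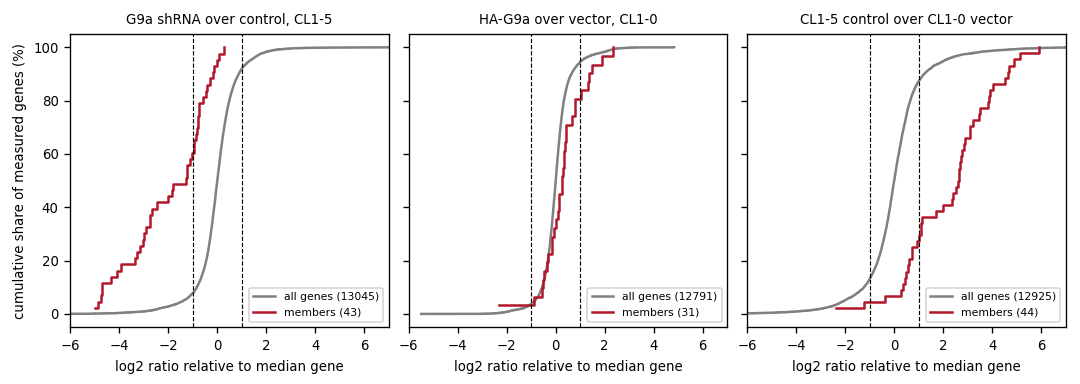
Cumulative share of measured genes (%) against the log2 ratio relative to the median gene, for all genes (grey) and the members (red) in each of 3 comparisons; dashed lines mark 2-fold. After the knockdown the members' curve lies to the left, with a median of -1.27; between the lines it lies to the right, with a median of 2.61; with HA-G9a it lies close to all genes, with a median of 0.26.

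The IFIT genes encode proteins that bind viral RNA and block its translation. All 4 were measured and lower, against 7.76% of all genes. IFIT3 read 529 with control shRNA in CL1-5 and 26.5 after the knockdown, against 8.84 and 21.7 in CL1-0 with vector and HA-G9a. This is 26.8-fold lower after the knockdown relative to the median gene, a ratio of -4.74, with -3.23 by its other probe set. IFIT1 read 572 and 73.9 in CL1-5, and 38.5 and 49.0 in CL1-0, and its knockdown ratio was -3.37. IFIT2 read 182 and 12.0, and 7.05 and 16.7, with a ratio of -4.35. For these 3 genes the CL1-5 control array stood far above the other 3. IFIT5 was the exception in size: it read 264 and 162 in CL1-5 against 28.6 and 55.5 in CL1-0, a knockdown ratio of -1.13, and its second probe set had a ratio of only -0.35.

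The oligoadenylate synthetases make the second messenger that switches on RNase L. OAS2 read 79.0 with control shRNA in CL1-5 and 1.72 after the knockdown, at least 31.5-fold lower since the second value is below the floor; in CL1-0 it read 7.26 and 7.97. Its other probe sets gave ratios of -4.24 and -3.92. OAS1 read 82.5 and 6.53 in CL1-5, and 2.52 and 6.37 in CL1-0, a knockdown ratio of -4.08, with -1.88 by its other probe set. OASL, a catalytically inactive relative that enhances RIG-I signalling, read 105 and 17.5, and 20.1 and 25.5, an 8.02-fold lower value after the knockdown. OAS3 did not follow its neighbours to this extent: it read 509 and 350 in CL1-5 and 85.6 and 81.5 in CL1-0, a ratio of -0.96, just short of 2-fold.

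The remaining RNA-directed effectors differed in the size of their knockdown ratios. DDX60, a helicase-like antiviral factor, read 61.0 and 12.1 in CL1-5 and 9.0 and 14.9 in CL1-0, a knockdown ratio of -2.75. ISG20, an RNA exonuclease, read 135 and 49.7, and 21.5 and 34.8, a ratio of -1.86. DDX60L, the paralog of DDX60, had a ratio of -1.25. EIF2AK2, the double-stranded RNA kinase PKR, read 502 and 445 in CL1-5 and 339 and 171 in CL1-0, a ratio of -0.60. Its other probe sets gave ratios of -1.33 and -1.41, so the gene's place on either side of 2-fold depended on the probe set. ADAR, the RNA-editing deaminase, read 1011 and 771, and 752 and 773, a ratio of -0.81. In sum 10 of the 13 RNA binders and double-stranded RNA enzymes were lower, against 7.76% of all genes, with a median ratio of -2.75.

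**Figure D2:**
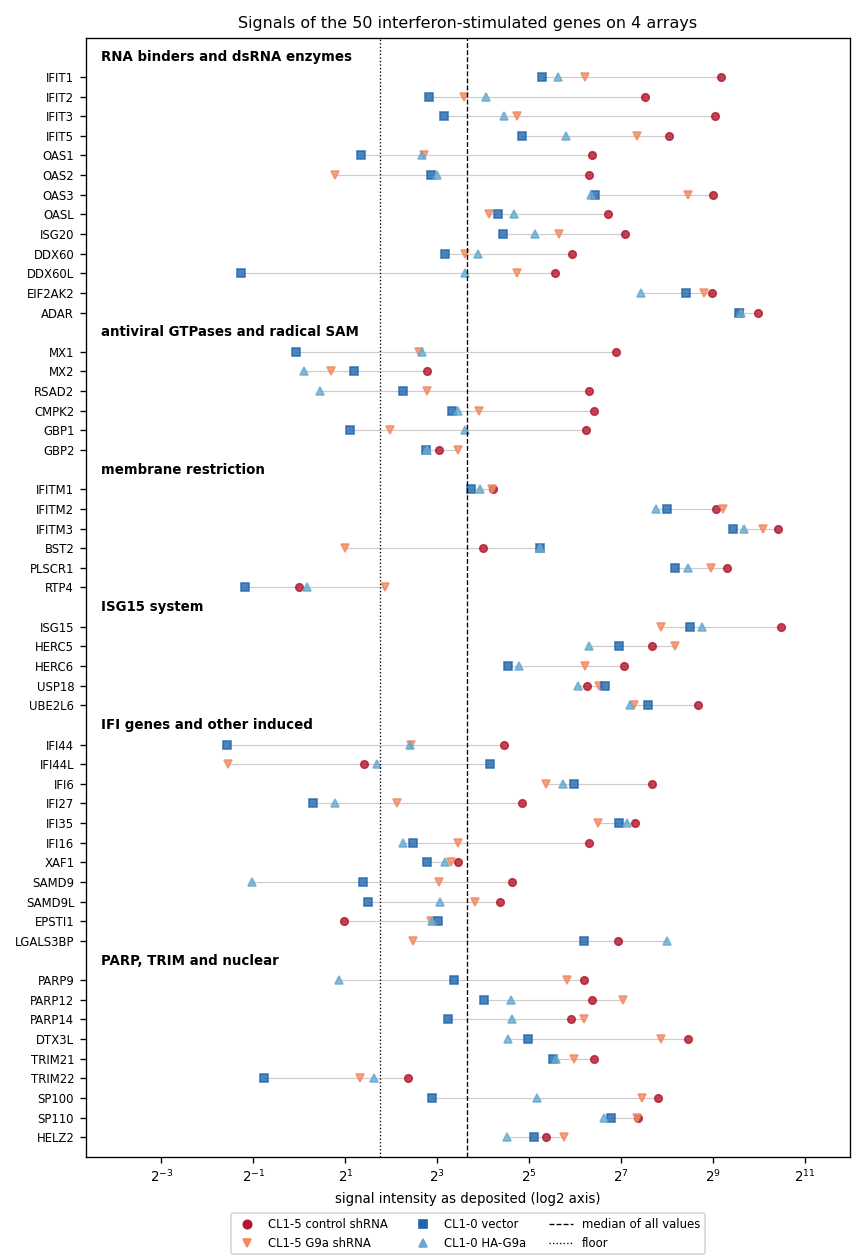
Signal intensity as deposited (log2 axis) of each of the 50 members on the 4 arrays, grouped by role; the dashed line is the median of all values, 12.5, and the dotted line the floor, 3.35. The CL1-5 control (red circles) is the brightest array for 35 of the 44 members above the dashed line on at least 1 array, while USP18 and IFITM1 show the 4 arrays close together.

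All 4 measured genes of the GTPase and radical SAM group were lower, against 7.76% of all genes, and by large factors. Of these, MX1, GBP1 and RSAD2 reached 12.5 only on the CL1-5 control array, so they could not have read higher. MX1, a dynamin-like GTPase that traps viral nucleocapsids, read 118 with control shRNA in CL1-5 and 6.09 after the knockdown, and 0.95 and 6.34 in CL1-0, with a knockdown ratio of -4.70. GBP1, a guanylate-binding protein that coats intracellular pathogens, read 75.5 and 3.90, and 2.15 and 12.1, a ratio of -4.69. Its other measured probe sets gave -3.91 and -2.27. RSAD2, or viperin, makes a chain-terminating nucleotide, and CMPK2, its chromosomal neighbour, phosphorylates nucleotide precursors. RSAD2 read 78.4 and 6.82 in CL1-5 and 4.79 and 1.36 in CL1-0, a ratio of -3.94, and CMPK2 read 84.8 and 15.1, and 9.94 and 11 in CL1-0, a ratio of -2.91. MX2 and GBP2 stayed below 12.5 on all 4 arrays and were not measured.

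Restriction factors of cell membranes mostly stayed within 2-fold. IFITM3, which blocks viral fusion in endosomes, read 1369 and 1090 in CL1-5 and 693 and 814 in CL1-0, a knockdown ratio of -0.75. IFITM2 read 535 and 590, and 256 and 215, a ratio of -0.28, and IFITM1 had a ratio of -0.45. The IFITM genes are near-identical paralogs and their probe sets can share signal: a probe set annotated to both IFITM2 and IFITM1, left out of all counts, read 59.8, 31.1, 29.5 and 22.0 in the order of the groups above. PLSCR1, a phospholipid scramblase with antiviral activity, read 629 and 492, and 290 and 352, a ratio of -0.78. BST2, or tetherin, which holds budding virions on the cell, had another pattern. It read 15.9 with control shRNA in CL1-5 and 1.98 after the knockdown, at least 6.33-fold lower, but 37.7 and 37.8 in CL1-0, so both CL1-0 arrays were above both CL1-5 arrays.

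The ISG15 system attaches the ubiquitin-like protein ISG15 to newly made proteins and removes it again. ISG15 itself read 1419 with control shRNA in CL1-5 and 234 after the knockdown, and 360 and 434 in CL1-0, an 8.10-fold lower value relative to the median gene. UBE2L6, its conjugating enzyme, read 409 and 156, and 191 and 146, a ratio of -1.81. HERC6, a HECT-type ligase, read 132 and 73.6 in CL1-5, and 23.2 and 27.6 in CL1-0, a ratio of -1.27. The ligase gene HERC5 and the deconjugating protease gene USP18 stayed close to the median gene. HERC5 read 203 and 286, and 123 and 79.0, a ratio of 0.08, and USP18 read 76.5 and 91.9, and 101 and 66.8, a ratio of -0.15.

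Among the IFI genes and other induced members 7 of 8 measured were lower, against 7.76% of all genes, with a median ratio of -2.59. LGALS3BP, a secreted galectin ligand, read 121 with control shRNA in CL1-5 and 5.55 after the knockdown, and 73.1 and 254 in CL1-0; it was 29.2-fold lower after the knockdown and the arrays with more EHMT2 signal were the brighter ones in both lines. IFI16, a nuclear DNA sensor, read 79.1 and 11 in CL1-5 and 5.51 and 4.74 in CL1-0, a knockdown ratio of -3.27, with -4.11 and -2.83 by its other probe sets. IFI6, a mitochondrial and endoplasmic reticulum protein, read 204 and 41.1, and 63.1 and 53.1, a ratio of -2.73. IFI35 read 158 and 89.7, and 123 and 138, a ratio of -1.24. Dimmer members read the same way: IFI27 had a ratio of -3.14, IFI44 of -2.45 and SAMD9, a translation inhibitor of poxvirus defence, of -1.99. SAMD9L, its neighbour and paralog, had a ratio of -0.95. IFI44L was above 12.5 only with the vector, at 17.7, and was not measured in CL1-5. XAF1, EPSTI1, TRIM22 and RTP4, with MX2 and GBP2, were the 6 members below 12.5 on all 4 arrays, with signals from 0.44 to 10.9.

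PARP, TRIM and nuclear members had the smallest median difference of the role groups, with a median ratio of -0.60. Of 8 measured, 1 was lower, which is near the 7.76% of all genes. The exception was DTX3L, a ubiquitin ligase that works as a complex with PARP9. DTX3L read 350 with control shRNA in CL1-5 and 232 after the knockdown, and 31.5 and 23.1 in CL1-0, a ratio of -1.02, at the edge of 2-fold. PARP9 had a ratio of -0.81, PARP14, a mono-ADP-ribosyltransferase, of -0.14 and PARP12 of 0.26. A second, dimmer PARP14 probe set had a ratio of 0.84, and PARP14 was the only member whose measured probe sets differed in sign. PARP12 read 82.3 and 132 in CL1-5 and 16.1 and 24.4 in CL1-0. TRIM21, a cytosolic antibody receptor, read 85 and 62.8, and 45.6 and 47.5, a ratio of -0.86. Among the nuclear body genes, SP100 read 221 and 174, and 7.42 and 35.7, a ratio of -0.76, and SP110 read 165 and 163, and 110 and 98.4, a ratio of -0.44. HELZ2, a nuclear receptor coactivator helicase, had a ratio of -0.03. Its other measured probe sets gave -1.25 and -0.45, so its place on either side of 2-fold depended on the probe set.

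Probe sets of the same gene mostly gave the same picture. Of 20 members with several measured probe sets after the knockdown, 19 had all ratios on one side of the median gene. Of the 11 of these that were lower, 10 had every measured probe set past 2-fold, the exception being IFIT5. ISG20 and OASL were lower still by their second probe sets, at -5.21 and -5.33. Of the 50 members, 26 had several probe sets and 24 had 1, so MX1, ISG15, IFIT1 and LGALS3BP rest on a single probe set.

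**Figure D3:**
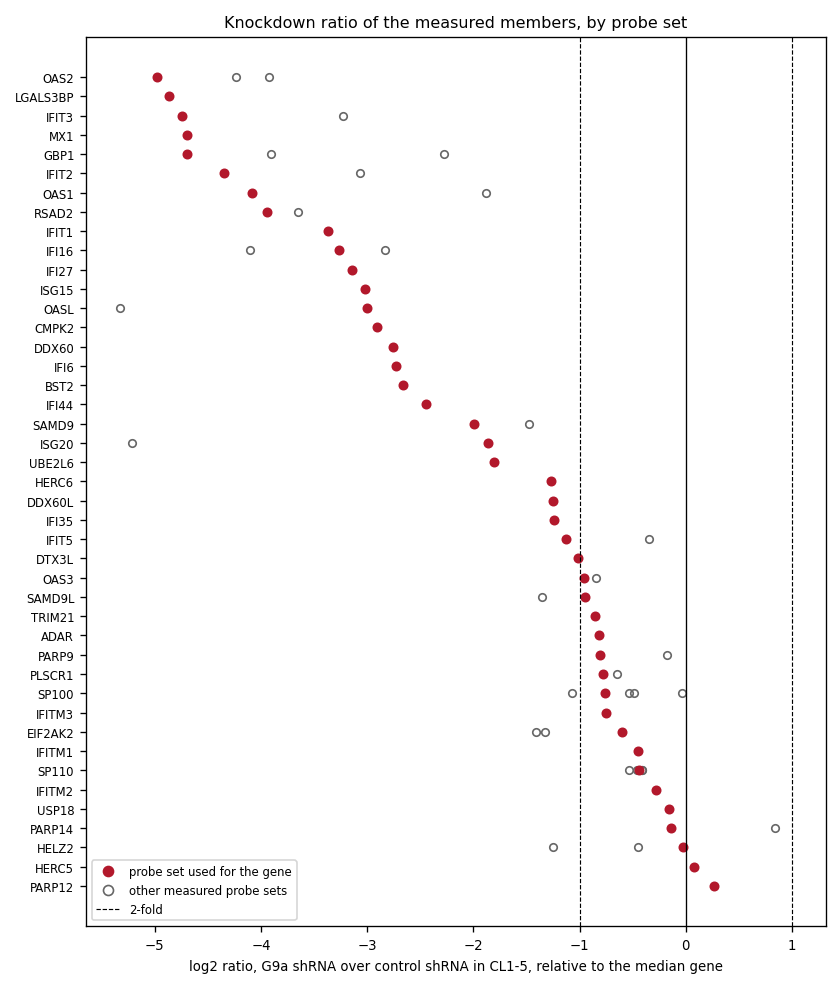
Log2 ratio of G9a shRNA over control shRNA in CL1-5, relative to the median gene, for the 43 measured members in order of the ratio; filled circles are the probe set used for the gene and open circles its other measured probe sets, with dashed lines at 2-fold. OAS2 stands lowest at -4.98 and PARP12 highest at 0.26, and most open circles lie on the same side of 0 as the filled ones.

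The members are spread over 16 chromosomes, and 27 of the 50 form 11 groups of neighbours with at most 1 other protein-coding gene between them. Within such groups the knockdown ratio was not uniform. Over all measured genes, 7.76% were lower by 2-fold. All 4 genes of the IFIT group on chromosome 10 were lower, both genes of CMPK2 and RSAD2 on chromosome 2, and both of DDX60 and DDX60L on chromosome 4. None of the 3 IFITM genes on chromosome 11 was. In the OAS group on chromosome 12, 2 of 3 were lower, in the PARP9, DTX3L and PARP14 group on chromosome 3, 1 of 3, and of HERC5 and HERC6 on chromosome 4, 1 of 2.

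Between the control arrays, most members were brighter in CL1-5 than in CL1-0. The CL1-5 control carried a control shRNA and the CL1-0 control a vector, so line and construct cannot be told apart. Of 44 measured members, 31 were at least 2-fold higher in CL1-5, against 12.6% of all genes, and 2 were lower, against 13.2%. Of these 2 arrays, only the CL1-5 control reached 12.5 for IFIT2, IFIT3, IFI44, IFI27, IFI16, MX1, OAS1, OAS2 and RSAD2. The same held for DDX60, DDX60L, SAMD9, SAMD9L, PARP9, PARP14, CMPK2, SP100 and GBP1. All these genes could not have read lower. IFI44L reached 12.5 only with the vector and could not have read higher. The shares of all genes were taken with the same filter. The median log2 ratio was 2.61, and 26 members were at least 4-fold higher, against 5.25% of all genes. This comparison shares the CL1-5 control array with the knockdown comparison, and the 2 sets of ratios are not independent.

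The IFIT genes were far apart between the lines. IFIT3 had a line ratio of 5.92, IFIT2 of 4.71 and IFIT1 of 3.91. MX1 had a ratio of at least 5.15 and OAS1 of at least 4.63, since their vector signals, 0.95 and 2.52, were below the floor. SP100 had a ratio of 4.91, DTX3L of 3.49, PARP9 of 2.84, PARP14 of 2.69, OAS3 of 2.59 and PARP12 of 2.37. All 6 were brighter on both CL1-5 arrays than on either CL1-0 array, and of the 6, only DTX3L passed 2-fold after the knockdown. Members with small line ratios included ADAR at 0.44, EIF2AK2 at 0.58, SP110 at 0.61, HERC5 at 0.74, HELZ2 at 0.28 and IFI35 at 0.38. A dimmer HELZ2 probe set gave 2.11. The 2 members that were lower in CL1-5 were BST2, at -1.24, and IFI44L, at no higher than -2.39, as its CL1-5 control signal of 2.66 was below the floor. USP18 had a line ratio of -0.38.

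Over the 4 arrays as deposited, the CL1-5 control was the brightest array for 35 of 44 members (79.5%) above 12.5 on at least 1 array. Over all such genes it was the brightest for 13.0%, and the knockdown array was the brightest for 56.2%. For the 26 members lower after the knockdown, the median signal was 112 in the CL1-5 control, 13.6 after the knockdown, 9.47 with the vector and 19.2 with HA-G9a. The 26 were picked by their CL1-5 signals, so the gap between the CL1-5 medians follows from the choice. In 12 of the 26, the knockdown signal was below the brighter CL1-0 array. Of the 26, 11 were below 12.5 on both CL1-0 arrays. Of the 17 members within 2-fold, 2 were, namely SAMD9L and PARP9. The matching shares of all genes were not computed, so these counts only describe the members. Whether fewer cells carried these transcripts or each cell held less cannot be told apart in bulk RNA.

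HA-G9a in CL1-0 went with small differences at these genes. Of 31 measured members, 6 were at least 2-fold higher, against 5.46% of all genes, and 1 was lower, against 3.74%; the median ratio was 0.26. Those higher were SP100, LGALS3BP, PARP14, IFIT3, IFIT2 and IFIT5, and the lower one was IFI44L. By the probe sets used, SP100, PARP14, IFIT3 and IFIT2 reached 12.5 only with HA-G9a in CL1-0, so they could not have read lower. IFI44L reached 12.5 only with the vector, so it could not have read higher. The shares of all genes were taken with the same filter. Among the 13 members whose brighter CL1-0 array reached 84.2, 1 was higher, against 1.56% of all genes this bright. That gene was LGALS3BP, from 73.1 to 254, a ratio of 1.88. The other 5 had vector signals between 7.05 and 28.6.

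SP100, a scaffold of nuclear bodies that restrain viral genomes, had the largest ratio with HA-G9a. Its signals were 7.42 and 35.7 with vector and HA-G9a, a ratio of 2.35, and another probe set gave 3.05. IFIT3 read 8.84 and 21.7, a ratio of 1.38, with 0.37 by its other probe set. IFIT2 read 7.05 and 16.7, a ratio of 1.33, and 2.66 by its other probe set. PARP14 read 9.44 and 24.7, a ratio of 1.47, and IFIT5 28.6 and 55.5, a ratio of 1.04. Among members bright on both CL1-0 arrays, ISG15 had a ratio of 0.35, ADAR of 0.12, IFITM3 of 0.32 and PLSCR1 of 0.36, all within 2-fold. EIF2AK2, also bright on both, had a ratio of -0.90, but its other probe sets gave only -0.03 and -0.20.

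The knockdown and HA-G9a comparisons share no array, and 30 members were measured in both. Of the 26 members lower after the knockdown, 15 were measured with HA-G9a. Of these, 4 were at least 2-fold higher, namely LGALS3BP, IFIT2, IFIT3 and IFIT5, the other 11 were within 2-fold, and 12 of the 15 had a ratio above 0, with a median of 0.42. By the probe sets used, IFIT2, IFIT3 and DDX60 reached 12.5 in CL1-0 only with HA-G9a, so their ratios could not have been below 0. IFIT2 and IFIT3 fell short of 2-fold with HA-G9a when the floor was set at the median of all values, at 0.50 and 0.87, and IFIT5 did as deposited, at 0.95. Of 10 members with several probe sets measured with HA-G9a, 3 had ratios of mixed sign, namely OASL, with 0.42 and -0.42, HELZ2 and SP110. Among the other 754 genes that were lower after the knockdown and measured with HA-G9a, 16.0% were 2-fold higher and 55.4% were above 0, with a median of 0.07. SP100 and PARP14, with the 2 other large HA-G9a ratios, were within 2-fold after the knockdown.

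**Figure D4:**
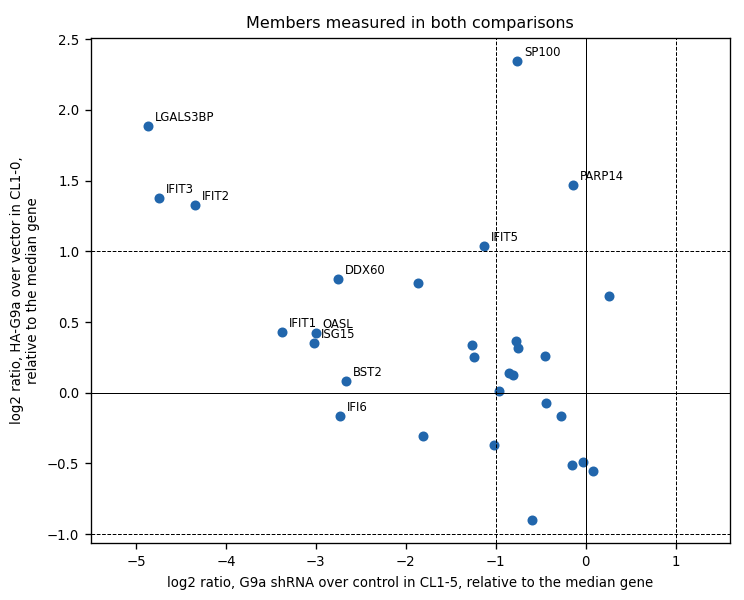
Log2 ratio of HA-G9a over vector in CL1-0 (vertical) against that of G9a shRNA over control shRNA in CL1-5 (horizontal), each relative to its median gene, for the 30 members measured in both; each point is 1 gene and dashed lines mark 2-fold. LGALS3BP, IFIT3, IFIT2 and IFIT5 sit in the upper left, SP100 is highest at 2.35, and ISG15, OASL and IFIT1 are far to the left but within 2-fold with HA-G9a.

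Upstream of these effectors, the interferon genes themselves gave almost no signal. Of 8 interferon genes on the array, none was measured in CL1-5, and IFNB1, the first type I interferon made by epithelial cells, read from 0.42 to 4.94 on the 4 arrays. IFNL1, a type III interferon, was the only one measured anywhere, at 23.4 and 23.7 in CL1-0 against 11.1 and 8.6 in CL1-5. IFNL2, below 12.5 on all 4 arrays, read the other way, at 10.9 and 12.1 in CL1-5 against 4.59 and 7.59 in CL1-0. The part of the interferon genes in the members' values was not tested. Of 9 receptor and kinase genes, all measured, 1 was lower after the knockdown and none higher, which is near the 7.76% and 8.13% of all genes: JAK2, a kinase of the interferon-gamma receptor, read 113 and 69.0, a ratio of -1.13. The type I receptor genes IFNAR1 and IFNAR2 had ratios of -0.55 and -0.03, and TYK2 and JAK1 of 0.24 and -0.30. IFNLR1, the type III receptor chain, read 49.0 and 75.9 in CL1-5 and 0.86 and 10.1 in CL1-0.

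Sensors and adaptors differed more. Of 9 measured, 2 were lower after the knockdown and none higher, with a median ratio of -0.27; over all genes the shares were 7.76% and 8.13%. STING1, the adaptor of cytosolic DNA sensing, read 205 with control shRNA in CL1-5 and 19.4 after the knockdown, and 7.18 and 13.0 in CL1-0, a ratio of -3.82. RIGI, a cytosolic RNA sensor that is itself interferon-induced, read 213 and 119, and 30.5 and 25, a ratio of -1.25. IFIH1, the sensor MDA5, read 88.3 and 62.4, and 9.91 and 12.2, a ratio of -0.92. CGAS, the enzyme upstream of STING1, had a ratio of -0.54, MAVS, the RNA sensing adaptor, of 0.02 and TBK1, their shared kinase, of 0.10. MYD88 read 202 and 360 in CL1-5 but 22.7 and 20.2 in CL1-0.

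Of 6 measured transcription factor genes, 1 was lower after the knockdown, against 7.76% of all genes. IRF9, the DNA-binding partner in the ISRE complex, read 219 and 133 in CL1-5 and 96.2 and 85.1 in CL1-0, a ratio of -1.14. IRF7, which amplifies interferon production, read 74.5 and 120, and 29.9 and 34.1, a ratio of 0.26, and IRF1 had a ratio of -0.58. Among 4 feedback genes, all measured, 1 was lower after the knockdown, against the same 7.76%. This was SOCS3, an inhibitor of JAK signalling, at 101 against 284, a ratio of -1.92. SOCS3 was higher with HA-G9a at 191 against 54.3, a ratio of 1.90. SOCS1 had a ratio of -0.66.

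**Figure D5:**
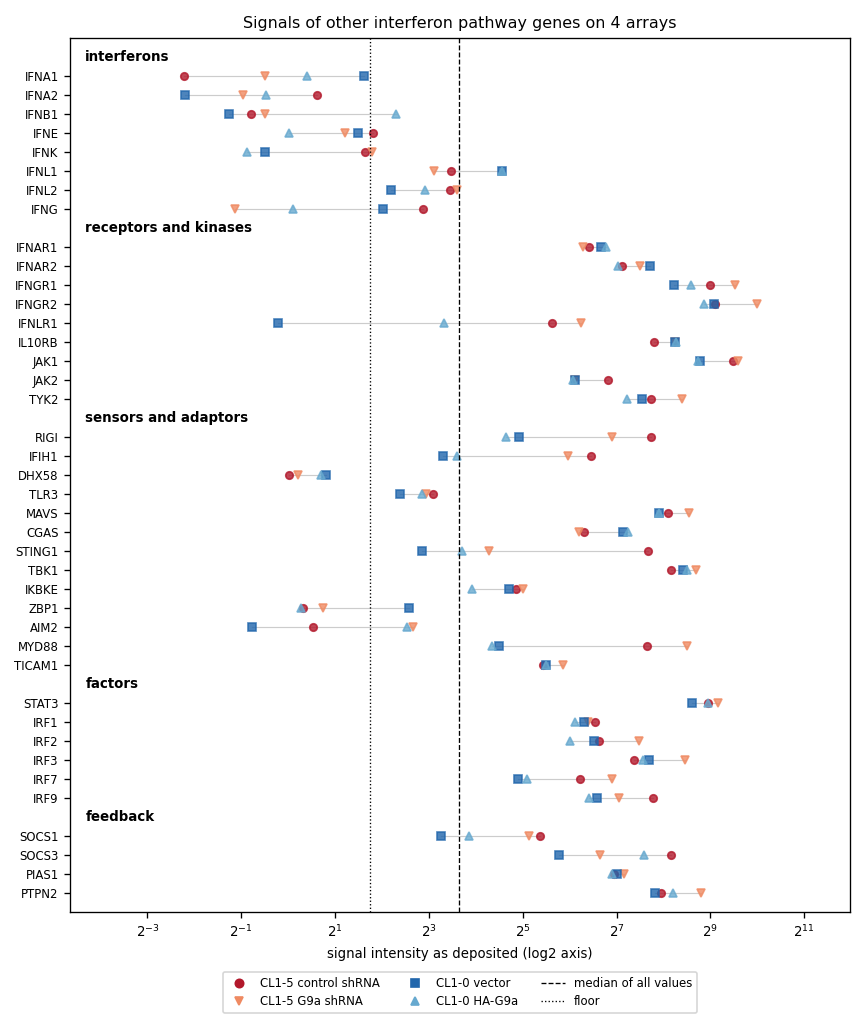
Signal intensity as deposited (log2 axis) of other interferon pathway genes on the 4 arrays, grouped as interferons, receptors and kinases, sensors and adaptors, factors and feedback genes, with the median of all values (dashed) and the floor (dotted). Of the interferons, all but IFNL1 lie below the dashed line on all arrays, and STING1 reads 205 in the CL1-5 control against 19.4 after the knockdown.

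Markers of other cell types were read on the same arrays. Of 11 leukocyte genes on the array, 6 stayed below 12.5 on all arrays; the 11 summed to between 80.5 and 134, and PTPRC, the pan-leukocyte gene, read from 2.59 to 4.17. Plasmacytoid dendritic genes, whose cells are the chief interferon source in blood, summed to 22.4 with control shRNA in CL1-5 and to 169 after the knockdown, 150 of which was TCF4; IL3RA was at or below 1.22 on all arrays. Endothelial markers moved with the members: the 7 summed to 518 in the CL1-5 control, 116 after the knockdown, 64.6 with the vector and 51.1 with HA-G9a. PECAM1 and CDH5 were among the 5 measured ones, all lower after the knockdown, against 7.76% of all genes. VWF and TEK read 1.97 and 1.86 in the CL1-5 control. The part of this in the members' values was not tested. Fibroblast markers summed to 36.0, 78.4, 444 and 168, and were highest with the vector.

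The labelled type II alveolar origin was weakly borne out by RNA. SFTPC read from 6.72 to 33.5 and SFTPB from 22.9 to 40.2, so these surfactant genes were dim on all arrays. Of 6 type II genes measured after the knockdown, 1 was lower and 2 were higher, against 7.76% and 8.13% of all genes. The lower one, NKX2-1, read 29.6 and 3.87 in CL1-5, and 31.2 and 60.2 in CL1-0, a knockdown ratio of -3.35. ABCA3 and NAPSA were higher, with ratios of 1.13 and 1.14. Among epithelial markers the keratin genes KRT8 and KRT18 were bright, at 757 and 2945 in the CL1-5 control. Their knockdown ratios were -1.64 and -0.64. CDH1 and EPCAM read 2.36 and 6.06 in the CL1-5 control and were higher after the knockdown. The ratio was at least 4.11 for CDH1, whose control signal was below the floor, and 1.16 for EPCAM. The 6 epithelial markers summed to 3745 and 2988 in CL1-5 and to 684 and 2360 in CL1-0, and the 8 alveolar markers to 420 and 398, and 244 and 285. The sums were carried by KRT8 and KRT18, and by ETV5 at 294 in the CL1-5 control and 104 with the vector. CDH1 and EPCAM ran the other way between the lines, with ratios of no higher than -2.13 for CDH1 and of -2.01 for EPCAM. The part of these markers in the members' values was not tested.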

How the data were processed

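RNA from 4 cell populations was hybridised on 1 Affymetrix array each. The values are linear signal intensities, 1 for each probe set, as the authors deposited them. The submitters' processing notes name MAS5 and nothing else; its settings are not stated there. MAS5 signals near background are noisy. Probe sets were named by the platform annotation, with symbols updated by Entrez identifier through a RefSeq table (GRCh38.p14). Of 54675 probe sets, 41097 had 1 symbol, 1801 several and 11777 none; probe sets with several symbols and Y-linked genes were left out. Some genes of the pathway are not analysed here.

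Each gene took the value of its brightest probe set, by the mean of the 4 arrays. Signals were set to a floor of 3.35 (25th percentile of all values) and log2-transformed, and ratios were centred on the median measured gene. A gene was measured when its brighter array reached 12.5. A fixed 2-fold threshold replaced a test, as each group had 1 array; the number of arrays limits the precision. Shares of all genes stand beside the main counts. The members and lists were chosen with earlier results of these data known. All members could be named; signals were printed for those at or above 84.2 on an array, and also for some dimmer members (among them OAS1, OAS2, GBP1, RSAD2, IFI16, BST2 and DDX60) chosen after their values were seen, as were the promoters. From each pathway list up to 8 genes with the largest knockdown ratios were named, and other pathway genes and markers after their values were seen. The fold step was tested on simulated data. Python 3.11.15, pandas 2.3.3 and NumPy 2.4.6 were used.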

Additional observations from a re-analysis of the deposited data

How the results depend on the processing

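The 3 comparisons were recomputed with 3 other scalings, hybridization control scaling, uncentred ratios, other floors, filters, probe set rules and a 4-fold threshold; scaling to the hybridization controls without centring was chosen after seeing the data. No member past 2-fold changed direction in these settings where it was measured. Of the 26 members lower after the knockdown, 20 stayed past 2-fold in every setting that measured them; BST2, DDX60L, DTX3L, HERC6, IFI35 and IFIT5 did not. Of the 7 past 2-fold with HA-G9a, 3 stayed and IFI44L, IFIT2, IFIT3 and IFIT5 did not, and of the 33 between the lines, 28. With the filter at the 75th percentile fewer genes were measured, and ratios were centred on their median. Of 27 members, 15 were lower after the knockdown, against 5.17% of all genes. Of 13 with HA-G9a, 1 was higher and 0 lower, against 1.6% and 0.814% of all genes. Of 26 between the lines, 17 were higher and 0 lower, against 10.3% and 9.48%, and the median was 1.80. With a floor at the median of all values, 0 were lower with HA-G9a and 1 between the lines, against 1.59% and 9.69% of all genes. With no filter, 2 of 50 were lower with HA-G9a, against 5.55% of all genes. With uncentred hybridization control scaling, 11 were higher with HA-G9a, where 10.1% of all genes were. With probe sets of type _at alone, 29 members were measured and the knockdown median was -1.91. At 4-fold, 1 of 31 was higher with HA-G9a, against 1.68% of all genes. Between the lines 1 of 44 was lower at 4-fold, against 5.21%. No paired analysis was possible because each group has 1 array, so leaving out a replicate was not possible either. Signal over background limits the HA-G9a comparison most, where 19 of the 50 members were not measured.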
